A study of Mus musculus with 3 samples.

Results

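The 10 genes described here encode parts of 4 corepressor systems, and their transcripts were followed through RIP-seq tables of nuclear RNA from CCE, a mouse embryonic stem cell line. They are Kdm1a, Rcor1 and Rcor2 (CoREST), Hdac1 and Hdac2 (deacetylases shared by several complexes), Chd4, Mta1 and Mbd3 (NuRD), Ctbp2 (CtBP) and Sin3a (Sin3). They were chosen by symbol, with earlier results of these data known, and make up 10 of the 8547 gene symbols listed in either table. RNA immunoprecipitation (RIP) recovers RNA with an antibody to a protein, and the groups were Mettl3 RIP, Zfp217 RIP and input, with 1 library in each. All came from untreated cells grown without feeders on gelatin in serum with LIF, and both antibodies were applied to lysate of isolated nuclei. A control RIP with an antibody to another protein was not used here, and with 1 library of 1 line in a group no p-value was computed.

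Corepressor complexes silence genes through chromatin. CoREST joins a histone demethylase, Kdm1a (LSD1), to Hdac1 or Hdac2 through an Rcor scaffold. NuRD pairs the same deacetylases with the remodelling ATPase Chd4, Mta scaffolds and Mbd3, and Sin3a is the scaffold of a further deacetylase complex. Ctbp2 is a corepressor that binds DNA-binding factors and brings in histone-modifying enzymes. Human ZNF217, the counterpart of mouse Zfp217, has been found with CoREST, LSD1 and CtBP proteins. Mettl3 methylates adenosine in mRNA to m6A. The question was whether the mRNAs encoding these partner complexes were recovered with both antibodies, and the values below are of RNA, not of the proteins.

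Levels are FPKM, fragments scaled to transcript length and library size, for each Ensembl transcript. The tables hold transcripts that reached 1 FPKM in the RIP and whose RIP value was 1.5 times the input or more, so an unlisted transcript is not shown to be absent or unbound. The Mettl3 table listed 9501 transcripts of 6971 symbols, and the Zfp217 table listed 8120 transcripts of 5933 symbols. The value of 1 fragment, read from low noncoding RNAs, gave about 9875000 fragments for the Mettl3 RIP, 7175000 for the Zfp217 RIP and 6100000 to 6175000 for the input. Of 8 embryonic stem cell markers, 6 were listed in each table (Dppa4, Esrrb, Klf4, Nanog, Pou5f1 and Sox2). Zfp42 and Tdgf1 were in neither. Of 8 markers of fibroblasts or differentiating cells 0 were listed in either. Listing depends on the ratio of RIP to input, so these counts do not measure expression or cell identity.

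Short stretches found in some listed isoforms of a gene and not in others are shown because the RIP and input values of these isoforms differ widely. The sequences are from GENCODE M21 transcripts (GRCm38), written 5′ to 3′ in the sense of the mRNA. Capitals mark the stretch that 1 listed isoform has and the compared one lacks, which is not every difference between them, and the lower-case letters are the 10 neighbouring bases of the spliced transcript on each side.
Kdm1a exon 7 of 11 of ENSMUST00000170979, chr4:136563438-136563449, minus strand: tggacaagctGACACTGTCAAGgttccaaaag
Mbd3 exon 1 of 7 of ENSMUST00000092295, chr10:80399122-80399217, minus strand: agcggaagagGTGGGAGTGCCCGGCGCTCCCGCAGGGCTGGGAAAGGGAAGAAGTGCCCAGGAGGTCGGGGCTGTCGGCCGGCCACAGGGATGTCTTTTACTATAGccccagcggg
Mta1 exon 4 of 20 of ENSMUST00000109723, chr12:113120211-113120261, plus strand: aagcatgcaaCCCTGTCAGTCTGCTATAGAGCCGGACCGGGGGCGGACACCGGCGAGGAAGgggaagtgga
Mta1 exon 17 of 20 of ENSMUST00000109726, chr12:113133541-113133576, plus strand: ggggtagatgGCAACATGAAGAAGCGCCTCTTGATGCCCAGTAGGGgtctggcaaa
All 4 stretches lie in coding sequence. The Kdm1a stretch, a 12-base exon, is in 1 of the 9 Kdm1a transcripts of M21, and an exon of this kind is known to be included mainly in neurons. The Mbd3 stretch of 96 bases is the end of exon 1, not the whole exon, and is in 1 of 6 Mbd3 transcripts. The Mta1 stretches of 51 and 36 bases are each in 4 of 8 Mta1 transcripts, and among the listed ones no transcript carried both.

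All 10 genes had at least 1 transcript listed in the Mettl3 table, and all 10 in the Zfp217 table. Because they were chosen with earlier results of these data known, their full listing is not independent evidence about the complexes. Of the 21924 protein-coding symbols in M21, 25.2% were listed for Mettl3, 21.6% for Zfp217 and 16.3% for both, but that total includes genes that these cells do not express. Shared listing was common in any case: 62.5% of the symbols in the Mettl3 table and 73.4% of those in the Zfp217 table were in the other one. The 10 genes contributed 22 transcripts to the Mettl3 table (15 protein-coding and 7 with a retained intron). They contributed 21 to the Zfp217 table (15 protein-coding, 4 with a retained intron and 2 other processed transcripts). Protein-coding transcripts made up 67.4% and 62.6% of the whole Mettl3 and Zfp217 tables, and retained-intron transcripts 11.4% and 14.0%. Of 29 different transcripts, 14 were in both tables, 8 in the Mettl3 table alone and 7 in the Zfp217 table alone. Over all genes, 4026 transcripts were in both tables, out of 9501 for Mettl3 and 8120 for Zfp217.

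The count of 10 rests in part on transcripts that had almost no input. The input was under 0.01 FPKM for 7 of the 22 transcripts in the Mettl3 table and 9 of the 21 in the Zfp217 table, against 35.8% and 44.2% of the whole tables. It was exactly 0 for 4 and 6 of them, against 31.4% and 38.9%, and an exact 0 can be a failed estimate. No fold is given for these. With an input of at least 0.01 FPKM, 8 genes were listed for Mettl3, without Hdac2 and Mbd3. Likewise 8 were listed for Zfp217, without Hdac2 and Mta1, and 7 for both. By the same input rule, 10.5% of the 21924 protein-coding symbols in M21 were listed for both. For Hdac1 the tables listed different transcripts, so 9 genes had the same transcript in both.

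**Figure D1:**
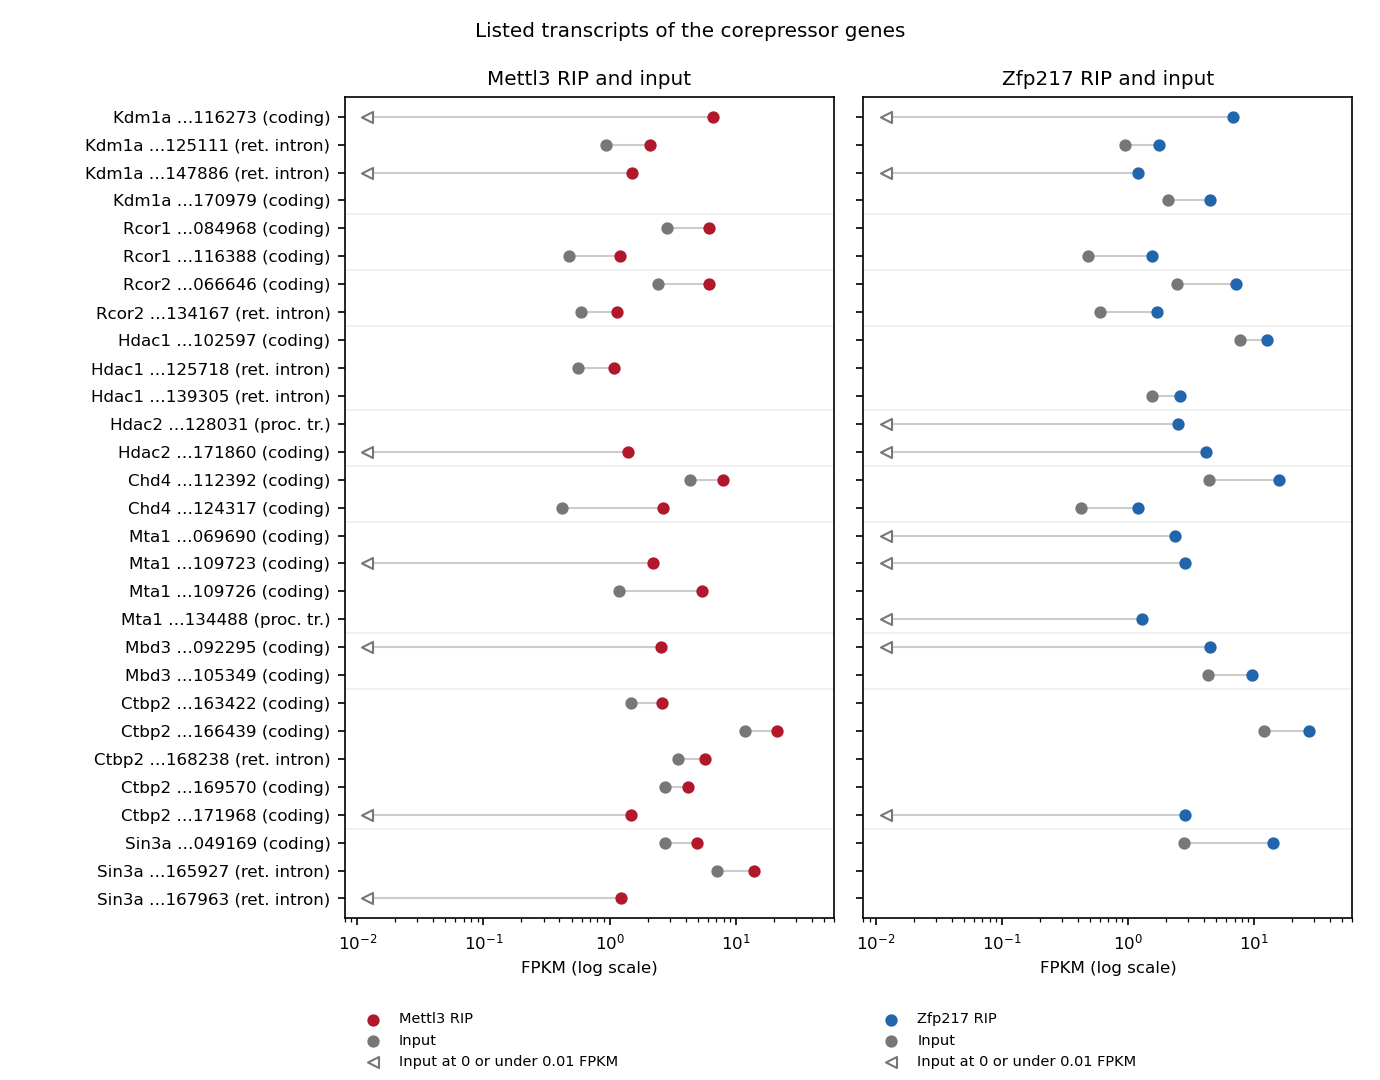
FPKM (log scale) of every listed transcript of the 10 genes, named by the last 6 digits of its Ensembl identifier and its class (coding, retained intron or processed transcript), with the RIP in colour and the input in grey, in the Mettl3 table on the left and the Zfp217 table on the right. Open triangles stand for inputs of 0 or under 0.01 FPKM and are drawn at the left edge, 7 in the Mettl3 table and 9 in the Zfp217 table; an empty row means that the transcript was not listed.

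The fold of a transcript is its plain ratio of RIP to input FPKM within a table. Its 95% interval comes from the estimated fragment counts and covers counting error only: neither variation between experiments nor the sharing of reads among isoforms is in it. The input library is common to both tables, and an input value that is low by chance raises the folds with both antibodies.

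In CoREST, the scaffold Rcor2 (chr19:7267325-7275225, plus strand) was the 1 gene whose interval lay above 1.5-fold with both antibodies for the same transcript among CoREST transcripts with an input of at least 0.01 FPKM. Its full-length transcript ENSMUST00000066646 had 6.10 FPKM in the Mettl3 RIP, against 2.44 FPKM in the input. In the Zfp217 table it had 7.16 FPKM in the RIP, against 2.46 FPKM in the input. It was 2.51-fold higher in the Mettl3 RIP (interval 1.78 to 3.68) and 2.91-fold higher in the Zfp217 RIP (2.05 to 4.28). A short retained-intron transcript of Rcor2, ENSMUST00000134167, was also in both tables, at 1.14 and 1.68 FPKM in the Mettl3 and Zfp217 RIPs. It rested on about 1.83 input fragments, and its intervals, 0.335 to 19.0 and 0.456 to 25.8, include 1.

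Rcor1 (chr12:111039351-111115901, plus strand), the other CoREST scaffold, was listed with both of its annotated transcripts for Mettl3. The long one, ENSMUST00000084968, had 6.15 FPKM in the Mettl3 RIP, against 2.84 FPKM in the input, 2.16-fold higher (1.72 to 2.74). It was not listed for Zfp217. The shorter ENSMUST00000116388, all of whose 2720 bases also lie in the long one, had 1.22 FPKM in the Mettl3 RIP, against 0.475 FPKM in the input (2.56-fold, 1.09 to 6.10). In the Zfp217 table it had 1.56 FPKM in the RIP, against 0.481 FPKM in the input (3.25-fold, 1.38 to 7.80). Reads in the shared bases cannot be assigned to either transcript by sequence.

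Kdm1a (chr4:136550540-136602723, minus strand), the demethylase of CoREST, was listed with 3 transcripts for Mettl3 and 4 for Zfp217. Its full-length transcript ENSMUST00000116273 stood at 6.54 FPKM in the Mettl3 RIP, against 0.00550 FPKM in the input. It stood at 6.80 FPKM in the Zfp217 RIP, against 0.00645 FPKM in the input. The levels were alike in the RIPs, about 185 and 140 fragments, while the input had next to none assigned to this isoform. Another full-length transcript, ENSMUST00000105847, shares 2968 of its bases, differs by a 60-base coding exon, and was in neither table. How far the assignment of reads between them set the near-zero input was not tested.

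The Kdm1a transcript with the 12-base exon shown above, ENSMUST00000170979, is a partial coding transcript of 965 bases, of which 953 are in the full-length one. It was listed for Zfp217 alone, at 4.49 FPKM in the RIP, against 2.07 FPKM in the input (2.17-fold, 1.08 to 5.31). These values are for the whole transcript, and the tables do not give the reads over the 12-base exon. A retained-intron transcript, ENSMUST00000125111, had 2.10 FPKM in the Mettl3 RIP and 1.77 FPKM in the Zfp217 RIP, against 0.944 and 0.955 FPKM in the input. Its folds, 2.22 for Mettl3 (0.807 to 6.34) and 1.85 for Zfp217 (0.653 to 5.91), have intervals that include 1. The other, ENSMUST00000147886, was at 1.51 FPKM in the Mettl3 RIP and 1.21 FPKM in the Zfp217 RIP, and was listed at 0 in the input. Thus no Kdm1a transcript had an input above 0.01 FPKM and an interval above 1 in both tables.

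For the deacetylase Hdac1 the antibodies differed in which transcripts were listed, while Hdac2 had 1 transcript in both tables. Hdac1 (chr4:129516104-129542713, minus strand) had its protein-coding transcript ENSMUST00000102597 in the Zfp217 table alone, at 12.7 FPKM in the RIP, against 7.66 FPKM in the input. This is 1.65-fold higher (1.26 to 2.15), and the input rested on about 88.6 fragments. For Mettl3, Hdac1 was represented by a retained-intron transcript alone, ENSMUST00000125718, at 1.08 FPKM in the RIP, against 0.560 FPKM in the input. That is near the listing limit of 1 FPKM, and its interval, 0.417 to 21.6, includes 1. Another retained-intron transcript, ENSMUST00000139305, was listed for Zfp217 with an interval of 0.528 to 5.13.

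Hdac2 (chr10:36974544-37001889, plus strand), the close relative of Hdac1, gave no fold in either table. Its transcript ENSMUST00000171860, which is not in M21, had 1.39 FPKM in the Mettl3 RIP, against 0.000278 FPKM in the input. In the Zfp217 table it had 4.18 FPKM in the RIP, against 0.000323 FPKM in the input. A processed transcript, ENSMUST00000128031, had 2.51 FPKM in the Zfp217 RIP and was listed at 0 in the input. All 906 of its bases are shared with the main coding transcript ENSMUST00000019911, which was in neither table.

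In NuRD, the ATPase Chd4 (chr6:125095981-125130591, plus strand) had the most fragments behind a single value. The transcript ENSMUST00000112392 had 7.88 FPKM in the Mettl3 RIP, against 4.35 FPKM in the input, and 15.6 FPKM in the Zfp217 RIP, against 4.40 FPKM in the input. It was 1.81-fold higher in the Mettl3 RIP (1.52 to 2.16) and 3.55-fold higher in the Zfp217 RIP (3.01 to 4.21), and these intervals do not overlap. A partial coding transcript of 1332 bases, ENSMUST00000124317, ran the other way. Its levels were 2.65 FPKM in the Mettl3 RIP and 1.20 FPKM in the Zfp217 RIP, against 0.422 and 0.427 FPKM in the input. The folds were 6.28 for Mettl3 (2.02 to 33.0) and 2.81 for Zfp217 (0.730 to 16.0). Its input rested on about 3.10 fragments, and 1248 of its bases are also in the long transcript.

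Mta1 (chr12:113098278-113137206, plus strand), a NuRD scaffold, had 1 isoform listed for both antibodies and others listed for a single antibody. ENSMUST00000109726, which carries the 36-base stretch, had 5.36 FPKM in the Mettl3 RIP, against 1.18 FPKM in the input. It was 4.55-fold higher (2.82 to 7.83), the highest fold among member transcripts with both values of at least 1 FPKM in the Mettl3 table, and it was not listed for Zfp217. ENSMUST00000069690, which carries the same stretch, lacks 83 bases of that transcript and has 5 of its own, had 2.36 FPKM in the Zfp217 RIP, was listed at 0 in the input, and was not listed for Mettl3. ENSMUST00000109723, with the 51-base stretch, was in both tables, at 2.19 FPKM in the Mettl3 RIP and 2.85 FPKM in the Zfp217 RIP, with under 0.01 FPKM in the input. A short processed transcript, ENSMUST00000134488, was at 1.29 FPKM in the Zfp217 RIP and listed at 0 in the input. No Mta1 transcript therefore had a fold in both tables.

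Mbd3 (chr10:80392539-80399550, minus strand), the methyl-CpG-binding family subunit of NuRD, had 1 isoform in both tables and 1 in the Zfp217 table alone. The isoform with the 96-base stretch, ENSMUST00000092295, had 2.54 FPKM in the Mettl3 RIP and 4.48 FPKM in the Zfp217 RIP, and was listed at 0 in the input. The isoform without it, ENSMUST00000105349, was listed for Zfp217 alone, at 9.53 FPKM in the RIP, against 4.32 FPKM in the input, 2.21-fold higher (1.51 to 3.35). All 1566 bases of this isoform are in the other. Summed over both listed isoforms, of 6 annotated, Mbd3 was at 14.0 FPKM in the Zfp217 RIP, against 4.32 FPKM in the input. The isoform listed at 0 in the input adds to the RIP side of this sum alone, so no fold is given for it.

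Ctbp2 (chr7:132987563-133124354, minus strand) was the most abundant of the 10 genes in both RIPs. Its transcript ENSMUST00000166439 had 21.3 FPKM in the Mettl3 RIP, against 11.9 FPKM in the input, and 27.4 FPKM in the Zfp217 RIP, against 12.0 FPKM in the input. It was 1.79-fold higher in the Mettl3 RIP (1.48 to 2.20) and 2.28-fold higher in the Zfp217 RIP (1.86 to 2.79). These intervals overlap, but both folds share the input, so the overlap does not compare the antibodies. The direct ratio of Mettl3 to Zfp217 RIP levels, described below, was 0.787 (0.682 to 0.912). ENSMUST00000171968, a partial transcript, had 1.48 FPKM in the Mettl3 RIP and 2.82 FPKM in the Zfp217 RIP, and was listed at 0 in the input.

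The remaining Ctbp2 transcripts were in the Mettl3 table alone. ENSMUST00000169570 encodes RIBEYE, the long form known from synaptic ribbons, and has a 1731-base exon that ENSMUST00000166439 lacks. It had 4.19 FPKM in the Mettl3 RIP, against 2.76 FPKM in the input. At 1.52-fold (1.11 to 2.09) it was just inside the 1.5-fold limit, and 1867 of its bases are shared with the shorter mRNA. A retained-intron transcript of 388 bases had 5.74 FPKM in the Mettl3 RIP, against 3.46 FPKM in the input (0.596 to 6.21). ENSMUST00000163422, which is not in M21, was 1.76-fold higher, with no interval.

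Sin3a (chr9:57072040-57128366, plus strand), the Sin3 scaffold, differed most between the antibodies among transcripts with an interval. Its full-length transcript ENSMUST00000049169 had 4.90 FPKM in the Mettl3 RIP, against 2.76 FPKM in the input, and 13.98 FPKM in the Zfp217 RIP, against 2.79 FPKM in the input. It was 1.78-fold higher in the Mettl3 RIP (1.38 to 2.33) and 5.01-fold higher in the Zfp217 RIP (3.95 to 6.44), with about 80.1 input fragments in each, and these intervals do not overlap. The retained-intron transcript ENSMUST00000165927 was listed for Mettl3 alone, at 13.9 FPKM in the RIP, against 7.06 FPKM in the input (1.97-fold, 1.18 to 3.28). Of its 641 bases, 590 are also in the full-length mRNA and 51 are not, so its value is not a measure of intron retention by itself. A further retained-intron transcript, ENSMUST00000167963, was at 1.24 FPKM in the Mettl3 RIP and listed at 0 in the input.

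**Figure D2:**
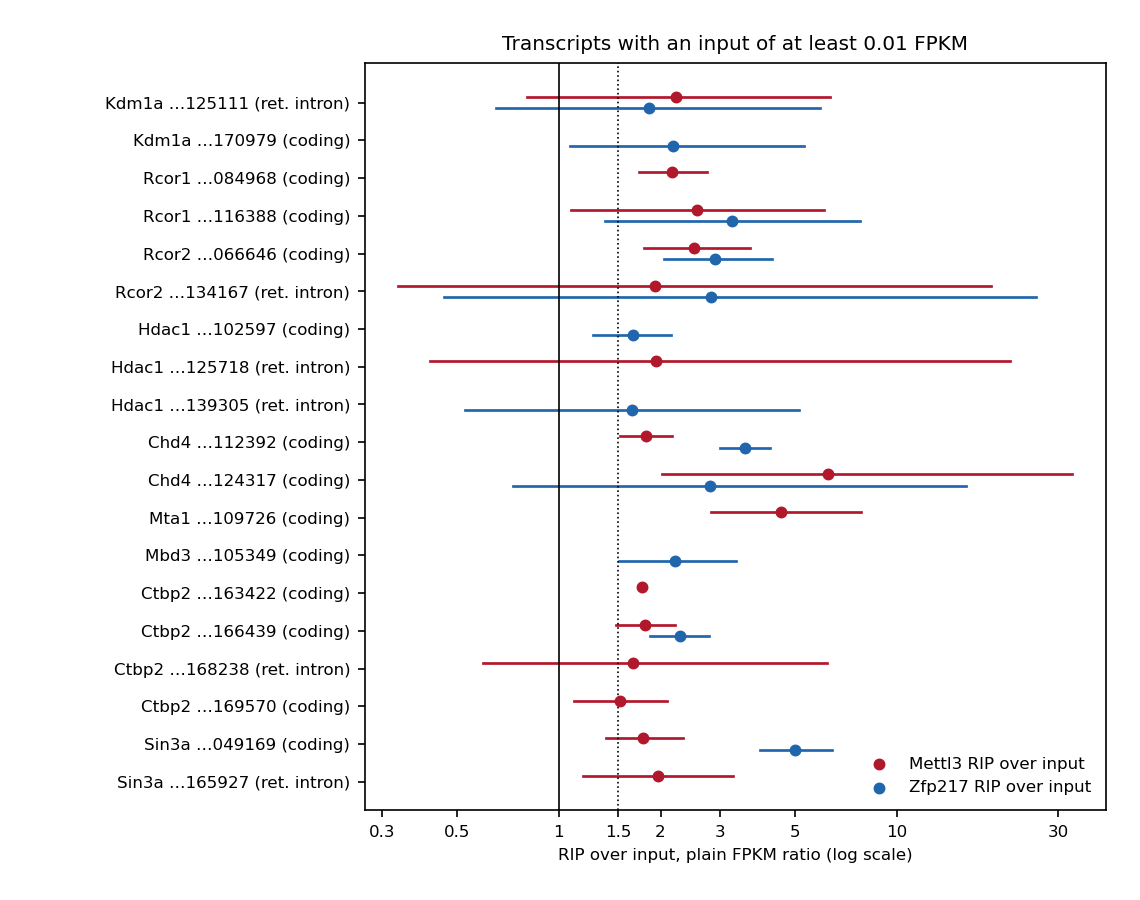
RIP over input as a plain FPKM ratio (log scale) for the 19 transcripts with an input of at least 0.01 FPKM, Mettl3 RIP in red and Zfp217 RIP in blue, with 95% counting intervals as bars (none where M21 holds no length). The solid line marks 1 and the dotted line the 1.5-fold listing limit; Sin3a reached 5.01-fold in the Zfp217 RIP and 1.78-fold in the Mettl3 RIP.

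The interval lay above 1 for 10 of 14 transcripts for Mettl3 and for 8 of 12 for Zfp217, against 80.8% and 67.7% of all listed transcripts of at least 300 bases with an input of at least 0.01 FPKM. It lay above the 1.5-fold limit for 5 with each antibody, against 47.1% for Mettl3 and 27.3% for Zfp217. Listing itself requires a 1.5-fold ratio, which favours intervals above 1. For counts, a transcript was called when it was at least 2-fold higher on log2(FPKM + 1), a scale that understates the ratio of low transcripts, and had a mean of RIP and input of at least 1 FPKM. For Mettl3, 15 of the 22 transcripts passed the filter on the mean and 6 were called (40.0%), against 51.1% of all transcripts that passed it. For Zfp217, 18 of 21 passed and 11 were called (61.1%), against 49.1%. A transcript with almost no input passes the filter only where it is high in the RIP. With an input of at least 0.01 FPKM, 3 of 12 were called for Mettl3 and 4 of 11 for Zfp217, against 37.6% and 28.4% of all such transcripts. The median log2 ratio of these member transcripts was 0.76 for Mettl3 and 0.84 for Zfp217, against 0.86 and 0.74 over all such transcripts. By the plain ratio, among transcripts with RIP and input both at least 1 FPKM, 3 of 10 were at least 2-fold higher for Mettl3 and 6 of 8 for Zfp217, against 54.3% and 39.3%. Of the 8 transcripts that passed the filter with both antibodies, 4 were called with both, against 38.5% of all such transcripts. Of these 4, the full-length Rcor2 mRNA was the only one with an input of at least 0.01 FPKM.

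The RIP levels of the 14 shared transcripts were then set side by side. The tables were normalised separately, so the Zfp217 values were scaled by 0.989, the median ratio of the input between the tables over 2813 transcripts. Of the 14 transcripts 11 were lower in the Mettl3 RIP than in the Zfp217 RIP, against 42.6% of the 4026 transcripts in both tables. The counting interval of the Mettl3 to Zfp217 ratio lay below 1 for 4 of 13 transcripts, against 11.1% of all shared transcripts of at least 300 bases. It lay above 1 for 1 of 13, against 24.1%. Sin3a mRNA was at 0.355 times its Zfp217 RIP level in the Mettl3 RIP (0.302 to 0.416), and Chd4 mRNA at 0.509 times (0.453 to 0.570). The Mbd3 isoform with the 96-base stretch was at 0.573 times (0.363 to 0.888) and the main Ctbp2 mRNA at 0.787 times (0.682 to 0.912). The partial Chd4 transcript was 2.24 times as high in the Mettl3 RIP (1.09 to 5.21).

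Kdm1a and Rcor2 mRNAs were at closer levels in the RIPs. The full-length Kdm1a transcript was at 0.973 times its Zfp217 RIP level in the Mettl3 RIP (0.775 to 1.22) and the full-length Rcor2 transcript at 0.862 times (0.683 to 1.09). These intervals include 1, and they leave room for a difference of the size seen for Ctbp2. Hdac2 was at 0.336 times, with no interval because its transcript is not in M21.

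**Figure D3:**
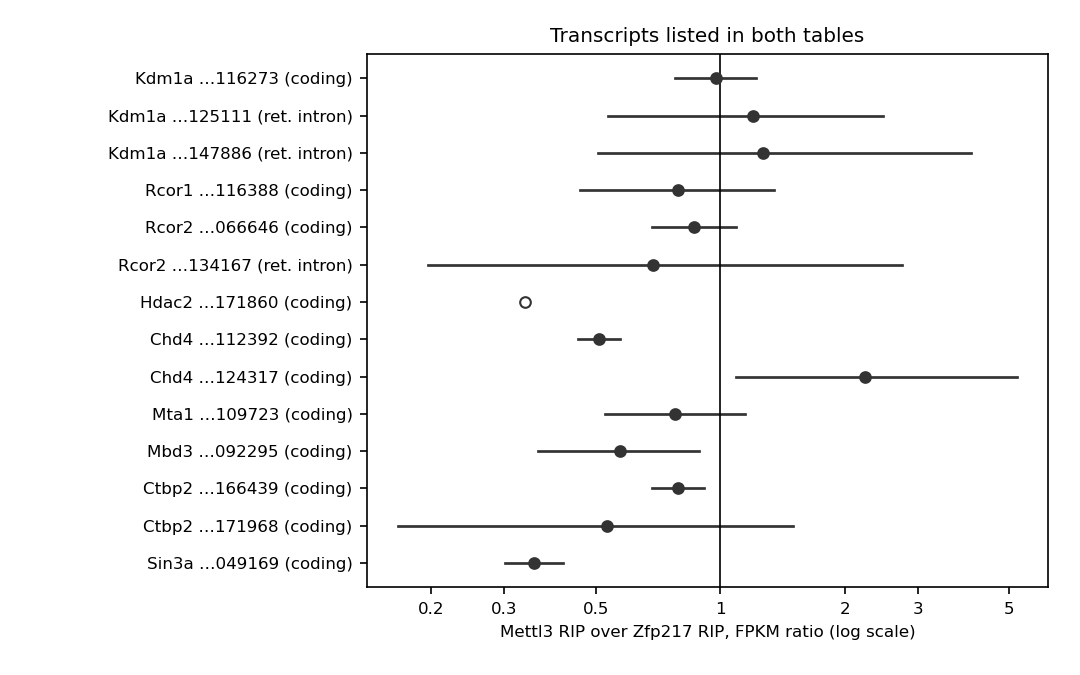
Mettl3 RIP level over Zfp217 RIP level (FPKM ratio, log scale, Zfp217 values scaled to the input of the Mettl3 table) for the 14 transcripts in both tables, with 95% counting intervals; the open circle has none. Sin3a (0.355) and Chd4 (0.509) mRNAs stand farthest below 1 among the transcripts with an interval, and the partial Chd4 transcript (2.24) above it.

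Of 35 other genes of the same complexes, 22 were listed for Mettl3, 21 for Zfp217, 20 for both (57.1%) and 12 for neither. Over all protein-coding symbols in M21 the shares were 25.2% for Mettl3, 21.6% for Zfp217 and 16.3% for both. That total includes genes that these cells do not express, and the 35 genes were chosen with earlier results of these data known. In NuRD 7 of 9 were in both tables: Cdk2ap1, Chd3, Mbd2, Mta2, Mta3, Rbbp4 and Rbbp7; the scaffolds Gatad2a and Gatad2b were in neither. In Sin3 7 of 13 were in both, in CoREST 3 of 7 and in the CtBP group 3 of 6 (Ehmt1, Wiz and Zeb1). Ctbp1 and Sin3b, the paralogues of Ctbp2 and Sin3a, and Rcor3, the paralogue of Rcor1 and Rcor2, were in neither table. Of their transcripts that passed the filter on the mean, 19 of 26 were called for Mettl3 and 12 of 20 for Zfp217, against the 51.1% and 49.1% above. With an input of at least 0.01 FPKM, 11 of 18 were called for Mettl3 and 5 of 13 for Zfp217, against 37.6% and 28.4%, with median log2 ratios of 1.11 and 0.85.

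Among those with both values of at least 1 FPKM, the cofactor Cdk2ap1 was highest in both tables, with 7.64 FPKM in the Mettl3 RIP and 5.93 FPKM in the Zfp217 RIP, against 1.72 and 1.74 FPKM in the input. Its folds were 4.44 for Mettl3 (1.87 to 15.5) and 3.41 for Zfp217 (1.31 to 12.1). Ing2, a Sin3 subunit that reads histone methylation, followed in the Mettl3 RIP at 3.42-fold (1.54 to 9.23), and Suds3, a Sin3 subunit, in the Zfp217 RIP at 3.05-fold (2.06 to 4.52). The lowest were Ing1 (1.78-fold) and Phf21a (1.87-fold) in the Mettl3 RIP, and Sap30 (1.59-fold) and Mta3 (1.77-fold) in the Zfp217 RIP.

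The motif GGACT, a common form of the site that Mettl3 methylates, was searched on the sense strand of the transcripts as a sequence description, since m6A itself was not measured. It was in 15 of the 17 protein-coding member transcripts with an M21 sequence (88.2%), against 86.9% of all 7513 listed protein-coding transcripts of at least 300 bases. The median density was 0.601 sites per kilobase in the member transcripts, against 0.997 over all of these. Isoforms of a gene, which share much of their sequence, are counted separately. Among the longer mRNAs the density was 1.47 in the Hdac1 transcript, 1.06 in Rcor2 and 0.619 in Sin3a. The Mbd3 isoforms with and without the 96-base stretch had 1.20 and 1.28, and the long and shorter Rcor1 transcripts 0.704 and 0.735. It was 0.601 in Chd4, 0.555 in RIBEYE and 0.501 in the main Ctbp2 mRNA. The coding Mta1 transcripts had 0.358 to 0.371, and full-length Kdm1a had 0.332. The partial transcripts ENSMUST00000124317 of Chd4 and ENSMUST00000170979 of Kdm1a held none.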

How the data were processed

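FPKM values of the input and of 1 RIP library per table were deposited by the authors for each Ensembl transcript, with a log2 ratio of RIP over input. The tools named, without roles or settings, are Cuffdiff, Cufflinks, TopHat2 2.0.8, Bowtie2 and CASAVA 1.4, with build mm9, per the submitters' processing notes. The deposited log2 ratio differed from that of the FPKM values by at most 0.00466. Lengths, exons and coordinates came from GENCODE M21 (GRCm38), which may differ from the authors' annotation; 27 of 29 member transcripts matched.

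Depth was estimated as the fragment number, with a common length term of 144 bases, that made low values (up to 6 fragments) of noncoding RNAs of 350 to 1500 bases whole within 0.08: 45 of 49 values for the Mettl3 RIP, 68 of 74 for the Zfp217 RIP, and 70 of 76 and 52 of 56 for the input in its 2 tables. Intervals are exact (Clopper-Pearson, 95%) on rounded fragment counts. The method was tested on simulated data built with the same formula and without reads shared among isoforms, so that test does not cover such sharing. Python 3.11.15, pandas 2.3.3 and scipy 1.17.1 were used.

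Values are given for every listed transcript of the 10 members, and for the 35 other subunits at the 2 highest and 2 lowest ratios per table with both FPKM values at least 1; other subunits are named only as listed or not, chosen after that was seen. Members and lists were chosen with earlier results of these data known. Alternatives were the pseudocount, the filter on low values, the transcript class, sums per gene and the size rule. With 1 library per group, no test across samples was possible. A listed subunit is counted but not reported by name here.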

Additional observations from a re-analysis of the deposited data

How the results depend on the processing

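The count of members listed in both tables, 10 of 10, was 9 when the same transcript had to be in both or when protein-coding transcripts alone were counted, and 7 with an input of at least 0.01 FPKM. Of the 6 member transcripts called for Mettl3, the count was 10 with no filter on low values, 2 with RIP and input each at least 1 FPKM, and 3 at a 3-fold rule. It was 8 with a pseudocount of 0.1 FPKM, 5 by the plain ratio and 4 for sums per gene. Of the 11 called for Zfp217, the count was 4 with RIP and input each at least 1 FPKM, and between 8 and 15 under the other alternatives. The counts of 2 and 4 use log2(FPKM + 1), unlike the 3 and 6 given earlier by the plain ratio. Shares over all transcripts are not given for these alternatives, so the counts show only how the calls depend on the rule. With a pseudocount of 0.1 FPKM all 43 log2 ratios were higher, by up to 3.07, and 25 stayed inside the counting interval of the plain ratio. Of the other 18, only full-length Sin3a in the Zfp217 RIP had an interval. Its log2 ratio was 1.98 with the pseudocount of 1 FPKM, just below that interval, and 2.28 with 0.1 FPKM, inside it. The rest had no interval, since only 14 Mettl3 and 12 Zfp217 ratios had one. No paired analysis was possible because each group was 1 library, and for the same reason no replicate could be left out. Depth limits the transcripts with under 10 input fragments, whose intervals are wide, and gives no fold where the input was under 0.01 FPKM. Reads shared by isoforms, and other reasons for a transcript being unlisted, cannot be judged from these tables.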

Other observations

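For transcripts in 1 table with an input of at least 0.01 FPKM, the listing limits give a level that the other RIP would not have passed, if those limits were the only reason for its absence, which the tables do not show. The Hdac1 coding transcript, at 12.7 FPKM in the Zfp217 RIP, would then be under 11.4 FPKM in the Mettl3 RIP. The Mbd3 isoform without the 96-base stretch, at 9.53 FPKM in the Zfp217 RIP, would be under 6.41 FPKM in the Mettl3 RIP. The Mta1 transcript ENSMUST00000109726, at 5.36 FPKM in the Mettl3 RIP, would be under 1.79 FPKM in the Zfp217 RIP. The long Rcor1 transcript, at 6.15 FPKM in the Mettl3 RIP, would be under 4.31 FPKM in the Zfp217 RIP. The Sin3a retained-intron transcript ENSMUST00000165927, at 13.9 FPKM in the Mettl3 RIP, would be under 10.7 FPKM in the Zfp217 RIP. For RIBEYE, at 4.19 FPKM in the Mettl3 RIP, the limit would be 4.18 FPKM in the Zfp217 RIP, nearly the same value.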
